A study of Homo sapiens with 4 samples.

Results

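A set of 10 genes of the mesenchymal programme and of the extracellular matrix was followed in total RNA of the prostate cancer cell lines C4-2 and LNCaP: VIM, FN1, LOX, THBS1, COL6A2, ZEB1, ZEB2, SNAI1, SNAI2 and TWIST1. They were chosen by symbol, through the RefSeq accessions of the deposited transcript entries, and are 10 of 22985 named genes, with 25 of 41351 entries. The group labelled C4-2 holds 2 libraries of a castration-resistant subline that was derived from LNCaP. The group labelled LNCaP holds 2 libraries of the androgen-dependent parent line, which the labels place as primary cancer although it was isolated from a lymph node metastasis. All 4 libraries share growth in charcoal-stripped (steroid-depleted) serum in RPMI medium, and all had ribosomal RNA removed before sequencing. Each group is a single established line, and separate cultures are not stated for its libraries, so p-values measure only their spread, which may be technical. The stored data of every sample carry the other line's name, so all directions follow the sample titles and would be inverted if the stored names were the true ones.

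When epithelial cells take on a mesenchymal state, the zinc finger repressors ZEB1, ZEB2, SNAI1 and SNAI2 and the helix-loop-helix factor TWIST1 switch off junction genes such as the E-cadherin gene CDH1. Cells in that state typically build vimentin filaments (VIM) and secrete fibronectin (FN1), collagens (such as collagen VI, with its chain gene COL6A2), thrombospondin-1 (THBS1) and the collagen cross-linking enzyme lysyl oxidase (LOX). LNCaP and its sublines are luminal epithelial cells, in which this programme is usually at a low level.

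FN1, THBS1 and VIM had the widest fold changes among the members that exceeded 10 CPM in a line, and their upstream sequences are shown as the context of those differences. They are the 250 bases before the RefSeq start site, 5′ to 3′ on the gene's strand (RefSeq, GRCh38.p14). Capitals mark each match to the GC box GGGCGG on either strand, overlapping matches included.

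FN1 promoter, chr2:215436069-215436318, minus strand: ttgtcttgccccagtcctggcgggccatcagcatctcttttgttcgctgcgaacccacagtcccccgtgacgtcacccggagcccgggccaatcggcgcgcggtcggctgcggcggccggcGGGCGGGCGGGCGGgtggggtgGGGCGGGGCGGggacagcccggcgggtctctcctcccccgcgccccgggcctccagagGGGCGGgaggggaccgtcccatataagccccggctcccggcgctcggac
THBS1 promoter, chr15:39580829-39581078, plus strand: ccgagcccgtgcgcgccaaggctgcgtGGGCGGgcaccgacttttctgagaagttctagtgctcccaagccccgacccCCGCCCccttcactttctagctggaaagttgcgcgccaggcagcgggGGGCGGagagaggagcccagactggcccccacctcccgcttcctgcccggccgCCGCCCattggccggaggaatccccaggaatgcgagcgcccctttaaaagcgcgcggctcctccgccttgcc
VIM promoter, chr10:17227991-17228240, plus strand: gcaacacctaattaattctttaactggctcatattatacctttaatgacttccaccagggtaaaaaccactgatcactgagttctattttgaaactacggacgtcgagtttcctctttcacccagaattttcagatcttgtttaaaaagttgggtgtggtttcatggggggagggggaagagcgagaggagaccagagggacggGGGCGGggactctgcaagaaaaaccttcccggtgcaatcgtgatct

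The GC box occurred 6 times in the FN1 window, 4 times in that of THBS1 and 1 time in that of VIM, and 42.6% of all 35116 windows of this length held at least 1. The letters CACCTG, an E-box that ZEB and SNAI factors bind, were in none of these 3 windows on either strand, against 17.5% of all windows. Promoter windows were matched for 7 of the 10 genes. Among the others matched, CACCTG was in 2 of 3 LOX windows and 2 of 7 ZEB1 windows, and in neither the COL6A2 nor the ZEB2 window. The GC content was 76.4% for FN1, 69.6% for THBS1 and 46.0% for VIM.

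FN1 has exons that are left out or kept by alternative splicing, and they are shown because the deposited entries allow their use to be compared between the lines. The exons of extra domain B and extra domain A are the classical cassette exons of fibronectin, each kept in oncofetal or wound fibronectin. They were read from GRCh37, the build of the deposited entries, 5′ to 3′ on the minus strand, in lower case throughout.

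FN1 extra domain B exon, chr2:216257654-216257926: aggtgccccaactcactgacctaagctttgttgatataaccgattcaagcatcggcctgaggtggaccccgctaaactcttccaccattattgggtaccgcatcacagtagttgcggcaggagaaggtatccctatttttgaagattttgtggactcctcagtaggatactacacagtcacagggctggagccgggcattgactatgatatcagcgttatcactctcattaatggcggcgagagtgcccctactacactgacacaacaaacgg
FN1 extra domain A exon, chr2:216245534-216245803: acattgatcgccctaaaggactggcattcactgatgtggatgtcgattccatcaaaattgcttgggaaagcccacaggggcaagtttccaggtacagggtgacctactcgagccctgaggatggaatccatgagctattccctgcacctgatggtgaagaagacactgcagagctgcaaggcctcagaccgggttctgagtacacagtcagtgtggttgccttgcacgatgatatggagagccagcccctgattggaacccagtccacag

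The depth, as sense tags in exons of named genes, was 163126630 and 119080520 in C4-2-labelled libraries and 58925680 and 70459588 in LNCaP-labelled libraries. These tags made up 67.67% and 69.43% of the total used for RPKM in C4-2-labelled libraries, against 31.03% and 35.65% in LNCaP-labelled libraries. This share moved with the line, and its part in the results cannot be told apart from that of the line. Of 15975 genes tested with edgeR's quasi-likelihood test, 80.0% passed a Benjamini-Hochberg adjusted p under 0.05. Of all tested genes 40.2% were higher and 39.7% were lower in C4-2-labelled libraries, with a median log2 fold change of -0.0113. All 10 luminal prostate markers were present in both lines, with summed levels of 4110 and 4080 CPM (tags per 1e6 sense tags, scaled by TMM) in C4-2-labelled libraries and 4040 and 3940 CPM in LNCaP-labelled libraries. KLK3, the prostate-specific antigen gene, and KLK2 stood at log2 fold changes of -6.46 and -3.78, and the luminal keratin gene KRT8 at 1.70. Fibroblast and smooth muscle markers summed to 12.8 and 13.1 CPM in C4-2-labelled libraries and to 11.2 and 13.5 CPM in LNCaP-labelled libraries, with COL1A2 at 0 tags throughout. Of these 12 markers 5 were tested, with 3 higher, 1 lower and 1 not passing, beside 40.2% higher and 39.7% lower for all genes. The part of these markers in the results on matrix genes was not tested.

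Of the 10 genes, 7 had enough tags for the test. VIM and COL6A2 rose and FN1, LOX and THBS1 fell in C4-2-labelled libraries, while SNAI1 and SNAI2 did not pass. The share of members higher, 2 of 7, stands beside 40.2% of all tested genes, and the share lower, 3 of 7, beside 39.7%. The members' median log2 fold change was 0.16, beside -0.0113 for all genes, and 5 of 7 members passed beside 80.0% of all genes. For 6 of the 7, C4-2-labelled and LNCaP-labelled values lay apart, beside 89.9% of all tested genes. By at least 2-fold, 1 member was higher and 3 were lower, where 11.7% and 18.1% of all tested genes were. Scaled to the library totals behind RPKM, which moves all genes upwards by about 1.01 on the log2 scale, the log2 fold changes were 3.8 for VIM, 1.81 for COL6A2, -1.94 for FN1, -2.46 for LOX and -7.46 for THBS1.

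**Figure D1:**
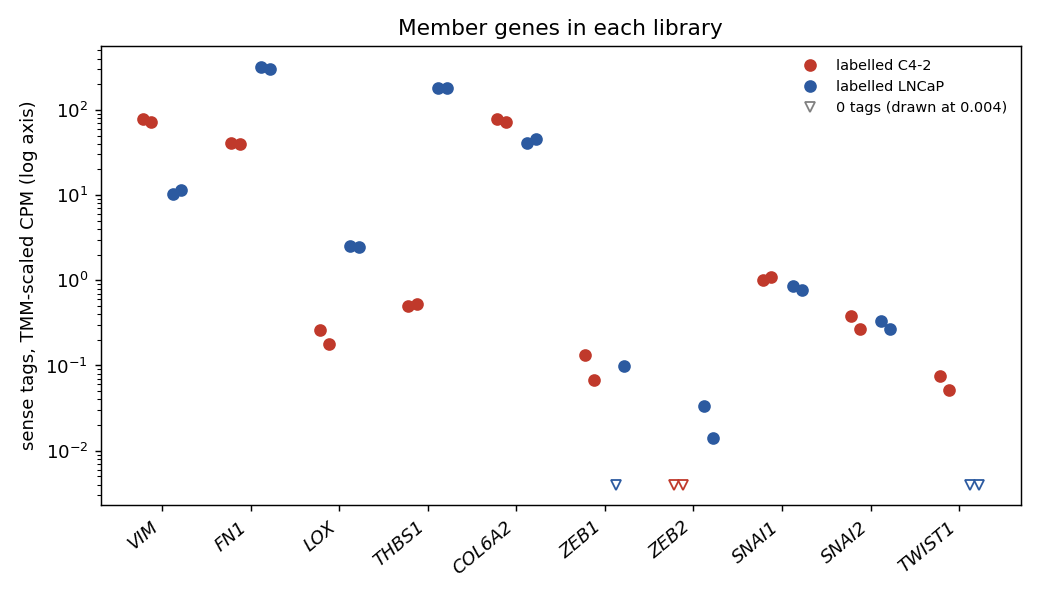
Level of each of the 10 genes in every library, as TMM-scaled CPM on a log axis, with a point per library and open triangles for libraries with 0 tags. THBS1 lies near 0.5 CPM in C4-2-labelled libraries and near 180 CPM in LNCaP-labelled libraries, whereas VIM lies higher in C4-2-labelled libraries.

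THBS1 encodes thrombospondin-1, a matrix glycoprotein that restrains new blood vessels and releases latent TGF-beta (hg19 chromosome 15, 39873280 to 39889668, plus strand). It had 81 and 62 sense tags in C4-2-labelled libraries, against 10799 and 12903 in LNCaP-labelled libraries. These are 0.504 and 0.526 CPM in C4-2-labelled libraries and 180 and 182 CPM in LNCaP-labelled libraries. Both LNCaP-labelled libraries were thus high and both C4-2-labelled libraries low, with a gap far wider than the spread between replicates. It fell 352-fold, with a log2 fold change of -8.46 ± 0.062 (SE, edgeR adjusted p = 3.08e-10).

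Tags on the strand opposite to THBS1 were also lower in C4-2-labelled libraries, but by less, as the plot of tags by strand shows. Scaled, they stood at 1.85 and 1.70 CPM in C4-2-labelled libraries and at 6.77 and 7.22 CPM in LNCaP-labelled libraries. Before scaling they numbered 297 and 200 in C4-2-labelled libraries and 407 and 511 in LNCaP-labelled libraries. In relation to the sense tags that is 367% and 323% in C4-2-labelled libraries, and 3.77% and 3.96% in LNCaP-labelled libraries. By the deposited strand columns, the opposite strand thus carried more tags than the sense strand in C4-2-labelled libraries, and fewer in LNCaP-labelled libraries. The kit is not stated to keep the strand. The genes annotated there on the minus strand in GENCODE are THBS1-AS1 and FSIP1, a gene for a sperm fibrous sheath interacting protein whose span overlaps that of THBS1 by 9111 bases. The deposited FSIP1 entry, which does not overlap THBS1, had 1.70 and 1.53 CPM in C4-2-labelled libraries and 16.3 and 15 CPM in LNCaP-labelled libraries (log2 fold change -3.27 ± 0.10). The source of the opposite tags was not tested.

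**Figure D2:**
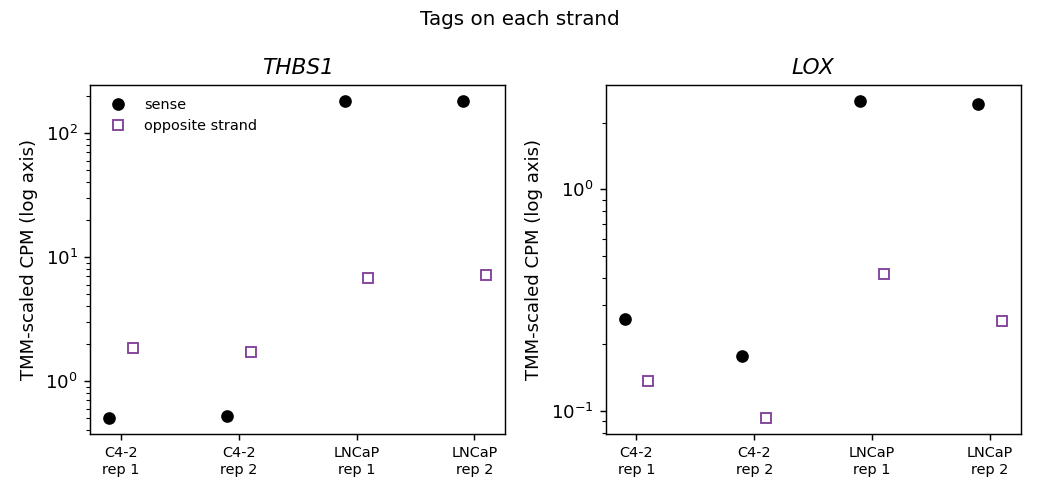
Sense tags (filled circles) and opposite-strand tags (open squares) of THBS1 and LOX in each library, as TMM-scaled CPM on log axes. Strands follow the deposited strand columns, and the kit is not stated to keep the strand. For THBS1 the opposite strand lies above the sense strand in both C4-2-labelled libraries, at 1.85 and 1.70 CPM, and far below it in LNCaP-labelled libraries, at 6.77 and 7.22 CPM.

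FN1 encodes fibronectin, the glycoprotein that integrins grip to assemble matrix fibrils (chromosome 2, 216225179 to 216300791, minus strand). Its longest entry had 6522 and 4681 tags in C4-2-labelled libraries, against 19313 and 21196 in LNCaP-labelled libraries. The levels were 40.6 and 39.7 CPM in C4-2-labelled libraries and 321 and 299 CPM in LNCaP-labelled libraries. FN1 was thus lower in both C4-2-labelled libraries, by 7.73-fold, with a log2 fold change of -2.95 ± 0.053 (edgeR adjusted p = 5.52e-09). A short entry that covers only the 5′ part of the gene, 2383 bases long, moved with it, at 1620 and 1126 tags in C4-2-labelled libraries and 4860 and 5234 in LNCaP-labelled libraries.

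The 5 long FN1 entries differ in length by the cassette exons printed above and by the variable region near the gene's 3′ end. Their exon lengths, recovered from tags and RPKM, differed by 543 bases for the extra domains A and B together and by 360 bases for the variable region. A difference in tags between such entries counts the tags that lie only in the extra bases. Extra domains A and B held 137 and 104 tags in C4-2-labelled libraries and 442 and 413 in LNCaP-labelled libraries. Relative to the shared exons of 7896 bases, these came to 2.28% ± 0.099 (SD, n = 2) in C4-2-labelled libraries and 2.23% ± 0.269 (SD, n = 2) in LNCaP-labelled libraries. A constant density would give 6.88%. The difference of 0.05 percentage points was within the spread between replicates (exact permutation test, two-sided, p = 1.0, where 0.333 is the smallest p that 2 libraries against 2 allow).

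Extra domain B, together with 93 bases of the variable region, held 37 and 26 tags in C4-2-labelled libraries and 108 and 79 in LNCaP-labelled libraries. Per base that was 0.129 and 0.127 of the shared exons in C4-2-labelled libraries, and 0.128 and 0.0842 in LNCaP-labelled libraries. By subtraction extra domain A held at least 100 and 78 tags in C4-2-labelled libraries and at least 334 in each LNCaP-labelled library. Its density was then at least 0.472 and 0.515 of the shared exons in C4-2-labelled libraries, and at least 0.535 and 0.482 in LNCaP-labelled libraries. Extra domain A was thus covered more densely than extra domain B in every library. The variable region lay at 3.21% ± 0.255 of the shared tags in C4-2-labelled libraries and at 2.99% ± 0.467 in LNCaP-labelled libraries (SD, n = 2 each; exact permutation test, two-sided, p = 0.667), where a constant density would give 4.56%. The level of FN1 thus differed between the lines while no difference in these exon shares was detectable with 2 libraries a line. How the counting treated tags that cross an exon border is not given in the sources used here, and its part in these shares was not tested.

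**Figure D3:**
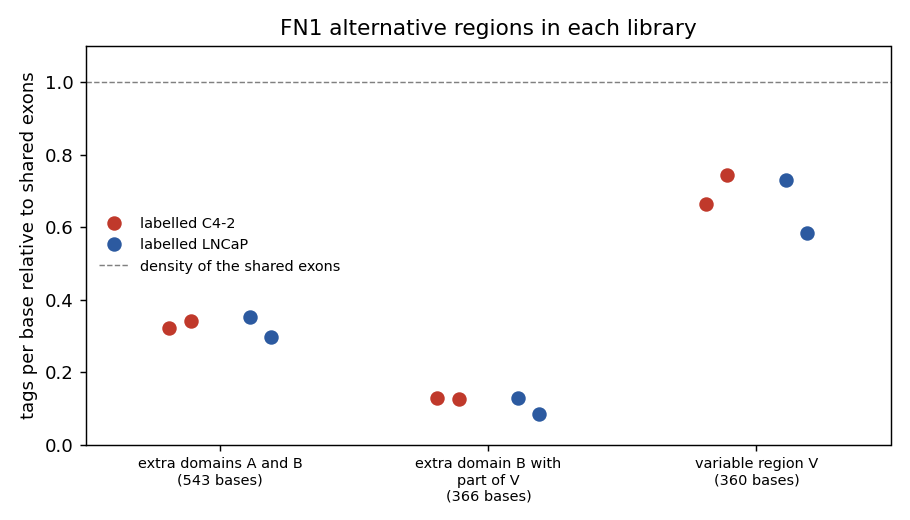
Tags per base in alternative regions of FN1, relative to the exons shared by the long entries, with a point per library and the dashed line at the shared density. The extra domains A and B lie between 0.297 and 0.352 in the 4 libraries and the variable region between 0.584 and 0.743, with the lines overlapping in both.

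LOX encodes lysyl oxidase, the copper enzyme that starts the cross-linking of collagen and elastin (chromosome 5, 121398890 to 121414055, minus strand). It was scarce, with 42 and 21 tags in C4-2-labelled libraries and 151 and 172 in LNCaP-labelled libraries. That is 0.261 and 0.178 CPM in C4-2-labelled libraries and 2.51 and 2.43 CPM in LNCaP-labelled libraries, without overlap. LOX fell 11-fold, with a log2 fold change of -3.45 ± 0.22 (edgeR adjusted p = 2.23e-06). Opposite tags numbered 22 and 11 (0.137 and 0.0932 CPM) in C4-2-labelled libraries and 25 and 18 (0.416 and 0.254 CPM) in LNCaP-labelled libraries. SRFBP1, a gene for a serum response factor binding protein, overlaps LOX on that strand by 12376 bases and was at 45.0 and 46.0 CPM in C4-2-labelled libraries and at 45.2 and 40.2 CPM in LNCaP-labelled libraries.

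COL6A2 encodes the alpha 2 chain of collagen VI, a beaded-filament collagen made of chains from several genes (chromosome 21, 47518033 to 47552763, plus strand). It had 77.3 and 73.0 CPM in C4-2-labelled libraries and 40.4 and 45.4 CPM in LNCaP-labelled libraries. The gene rose 1.75-fold in C4-2-labelled libraries, with a log2 fold change of 0.81 ± 0.065 (edgeR adjusted p = 8.06e-06). COL6A1, the gene of the alpha 1 chain on the same chromosome, was lower, at 115 and 110 CPM in C4-2-labelled libraries and 152 and 168 CPM in LNCaP-labelled libraries (log2 fold change -0.51 ± 0.058, edgeR adjusted p = 6.36e-05), but stood at 0.49 when scaled to the library totals. COL6A3, the alpha 3 chain gene, had 6 tags over C4-2-labelled libraries and 14 over LNCaP-labelled libraries, a scaled ratio of 0.201 with a 95% counting interval of 0.0634 to 0.558. COL6A5 and COL6A6 had 0 sense tags throughout, with 12 to 30 opposite tags per library for COL6A6. On the deposited RPKM scale, which corrects for length, COL6A2 stood at 0.824 and 0.818 of COL6A1 in C4-2-labelled libraries and at 0.327 and 0.332 in LNCaP-labelled libraries.

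Entries of COL6A2 end at different 3′ exons. The entry that runs to 47552763 had 12414 and 8615 tags in C4-2-labelled libraries and 2427 and 3217 in LNCaP-labelled libraries. The shorter entry of 3153 bases, which ends at 47549719, had 11045 and 7706 tags in C4-2-labelled libraries and 2291 and 3020 in LNCaP-labelled libraries. The ratio of these entries was 1.12 in each C4-2-labelled library, and 1.06 and 1.07 in LNCaP-labelled libraries. They share most exons, so the ratio does not give the share of each isoform.

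VIM encodes vimentin, the intermediate filament protein of mesenchymal cells (chromosome 10, 17270258 to 17279592, plus strand). Its single entry had 12460 and 8548 tags in C4-2-labelled libraries, against 615 and 804 in LNCaP-labelled libraries. This gave 77.6 and 72.5 CPM in C4-2-labelled libraries and 10.2 and 11.4 CPM in LNCaP-labelled libraries, with no overlap. VIM rose 6.94-fold, with a log2 fold change of 2.79 ± 0.071 (edgeR adjusted p = 2.48e-08), and the ratio of mean deposited RPKM was 13.9. Opposite tags, where the lncRNA gene VIM-AS1 is annotated, were few, at 46 and 33 in C4-2-labelled libraries and 12 and 13 in LNCaP-labelled libraries. In bulk RNA a change in the number of cells that express a gene and a change in RNA per cell cannot be told apart.

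**Figure D4:**
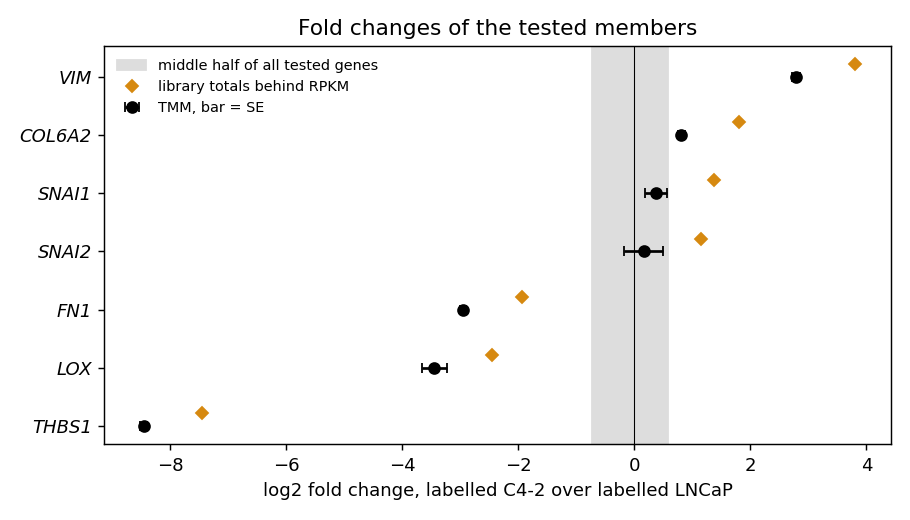
Log2 fold changes (labelled C4-2 over labelled LNCaP) of the 7 members tested, with SE bars for TMM scaling, diamonds for scaling to the library totals, and a grey band for the middle 50% of all tested genes. FN1, LOX and THBS1 lie far left of the band and VIM far right of it under both scalings, while SNAI1 and SNAI2 lie within it under TMM scaling.

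The factors that drive the mesenchymal state were scarce, at about 1 CPM or less in every library. SNAI1, also called Snail, was the most abundant of them, with 160 and 130 tags in C4-2-labelled libraries and 51 and 55 in LNCaP-labelled libraries. At 0.996 and 1.1 CPM in C4-2-labelled libraries and 0.849 and 0.777 CPM in LNCaP-labelled libraries it did not pass (log2 fold change 0.37 ± 0.19, edgeR adjusted p = 0.115). SNAI2, also called Slug, had 62 and 32 tags in C4-2-labelled libraries and 20 and 19 in LNCaP-labelled libraries. Its values overlapped, at 0.386 and 0.271 CPM in C4-2-labelled libraries and 0.333 and 0.268 CPM in LNCaP-labelled libraries (log2 fold change 0.16 ± 0.34, edgeR adjusted p = 0.681). With library totals as the scale both passed, at 1.37 and 1.15, since that scale raises the median of all genes by about 1.01. Whether they passed thus depended on the scale.

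ZEB1, ZEB2 and TWIST1 had too few tags for the test. ZEB1 had 21 and 8 tags in C4-2-labelled libraries and 0 and 7 in LNCaP-labelled libraries, a ratio of 1.95 after scaling with a 95% counting interval of 0.834 to 5.26. Without LNCaP replicate 2, the only LNCaP-labelled library with ZEB1 tags, ZEB1 was tested and passed (edgeR adjusted p = 0.019), and without LNCaP replicate 1 it did not (adjusted p = 0.954). ZEB2 had 0 tags in both C4-2-labelled libraries and 2 and 1 in LNCaP-labelled libraries. TWIST1 had 12 and 6 tags in C4-2-labelled libraries and 0 in both LNCaP-labelled libraries, at least 2.82-fold higher against a floor of 3 tags over the group. The 95% counting interval of that ratio starts at 2.06, and a level of 0.0628 ± 0.0169 CPM (SD, n = 2) is close to that floor of 0.0229 CPM. ZEB1-AS1, the lncRNA gene that starts next to ZEB1 on the other strand, had far more tags than ZEB1. Under TMM it was lower at 3.50 and 3.95 CPM in C4-2-labelled libraries, against 6.44 and 5.82 CPM in LNCaP-labelled libraries (log2 fold change -0.72 ± 0.11, edgeR adjusted p = 0.00043). Library totals as the scale move all genes upwards by about 1.01, more than this fall, so its direction depended on the scale.

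Levels of different genes can be compared per length on the RPKM scale, which uses the library totals. In C4-2-labelled libraries the order was led by VIM at 24.2 and 23.3 RPKM, then COL6A2 at 14.97 and 14.61 and FN1 at 3.08 and 3.10. SNAI1 followed at 0.389 and 0.444 RPKM and SNAI2 at 0.122 and 0.088, and THBS1 was sixth of the 10, at 0.058 and 0.062. LOX, at 0.034 and 0.024, overlapped TWIST1, at 0.030 and 0.021. In LNCaP-labelled libraries the order was led by FN1 at 11.6 and 12.2 RPKM and THBS1 at 9.82 and 11.3, ahead of COL6A2 at 3.72 and 4.73 and VIM at 1.52 and 1.91. LOX (0.154 and 0.168 RPKM) and SNAI1 (0.157 and 0.163 RPKM) overlapped there. The ratio of VIM to FN1 in RPKM was 7.87 and 7.52 in C4-2-labelled libraries and 0.131 and 0.156 in LNCaP-labelled libraries.

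Relatives of these genes, other thrombospondin, lysyl oxidase, collagen VI and SNAI genes among them, were lower or did not pass. Of 17 relatives 9 were tested, with none higher, 3 lower and 6 not passing, beside 40.2% higher and 39.7% lower for all genes. Their median log2 fold change was -0.30, beside -0.0113 for all genes. Scaled to the library totals 7 were higher and 0 lower. THBS3, another thrombospondin gene, had 9.50 ± 0.00708 CPM in C4-2-labelled libraries and 15.2 ± 0.794 in LNCaP-labelled libraries (SD, n = 2 each; log2 fold change -0.68, or 0.33 with library totals). THBS2 had no sense tag in C4-2-labelled libraries and 2 in LNCaP replicate 1. It had 82 and 57 opposite tags (0.51 and 0.483 CPM) in C4-2-labelled libraries and 56 and 38 (0.932 and 0.537 CPM) in LNCaP-labelled libraries. LOXL1, a lysyl oxidase relative, had a log2 fold change of -0.77, and SNAI3 one of -0.30 that did not pass. Their ratios of mean deposited RPKM (C4-2 over LNCaP), which use the library totals, were 1.18 and 1.6. Both directions thus depended on the scale.

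Other matrix genes changed in both directions. Among 23 tested collagen genes 8 were higher, 11 lower and 4 did not pass (median -0.93), beside 40.2% higher and 39.7% lower for all genes. COL4A5 and COL18A1, genes of basement membrane collagens, rose (1.34 ± 0.040 and 1.19 ± 0.090), while COL16A1 and the anchoring fibril gene COL7A1 fell (-3.48 ± 0.15 and -1.61 ± 0.096). With a filter of 1 CPM in 2 libraries 5 collagen genes were higher and 7 lower, and with library totals 10 were higher and 9 lower. Of 17 tested genes for matrix glycoproteins and proteoglycans 3 were higher, 8 lower and 6 did not pass (median -0.94), beside the same shares for all genes. Scaled to library totals 7 of them were higher and 6 lower. The follistatin-like gene FSTL1 fell (-4.47 ± 0.10), as did the latent TGF-beta binding protein gene LTBP1 (-1.32 ± 0.11, which did not pass with library totals, at -0.31). FBLN2 and the basement membrane proteoglycan gene AGRN rose (0.90 ± 0.096 and 0.33 ± 0.066).

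Of 17 tested mesenchymal state genes outside the 10, 5 were higher, 10 lower and 2 did not pass (median -1.34), beside 40.2% higher and 39.7% lower for all genes. With library totals 8 were higher and 8 lower. The actin-binding protein gene CALD1 fell to 325 and 338 CPM in C4-2-labelled libraries, against 1150 and 1090 in LNCaP-labelled libraries. LMNA, the lamin A gene, the growth factor receptor gene FGFR1 and the helix-loop-helix factor gene TCF3 rose (1.64 ± 0.061, 1.71 ± 0.092 and 1.20 ± 0.074). CDH2, the gene of N-cadherin, had 2 tags over each line's libraries.

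Epithelial genes of a list built around targets of the ZEB, SNAI and TWIST repressors all had enough tags for the test. Of 30 tested, 18 were higher, 10 lower and 2 missed the threshold (median 0.30), beside 40.2% higher and 39.7% lower for all genes. With library totals 26 were higher and 1 lower. CDH1 had 581 and 573 CPM in C4-2-labelled libraries and 316 and 297 CPM in LNCaP-labelled libraries (log2 fold change 0.91 ± 0.042, edgeR adjusted p = 3.80e-07). The desmosome gene PKP3 and the lipid enzyme gene CDS1 rose (1.70 ± 0.069 and 0.97 ± 0.042), and the trafficking gene MAL2 fell (-0.97 ± 0.048, or 0.04 with library totals). The epithelial splicing regulator genes moved apart. ESRP2 had a log2 fold change of 0.99 ± 0.060 and ESRP1 of -0.83 ± 0.054, which turned to 0.18 with library totals.

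**Figure D5:**
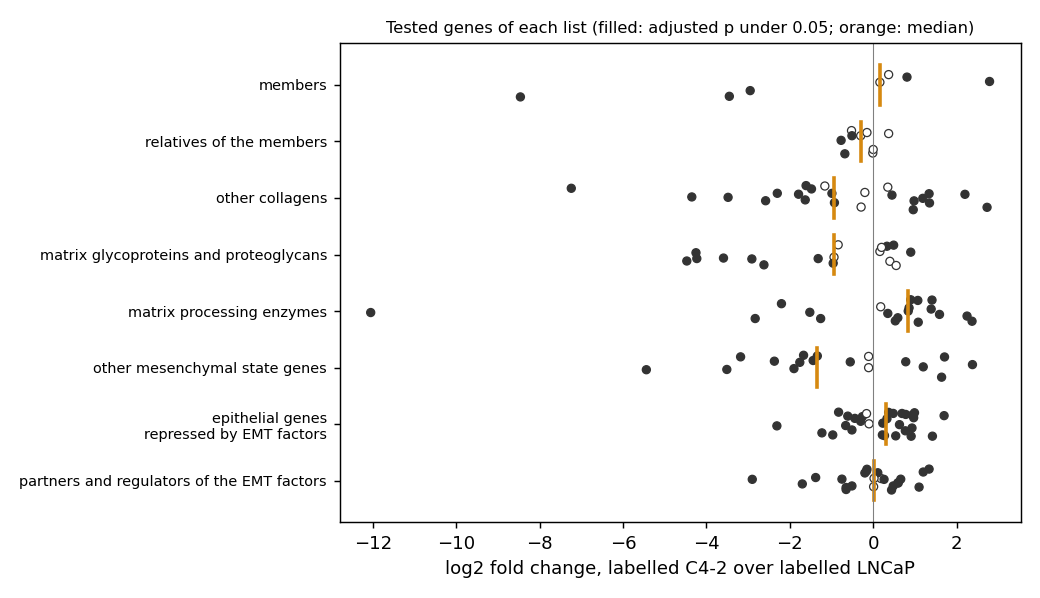
Log2 fold changes (labelled C4-2 over labelled LNCaP) of the tested genes of the members and of 7 other lists, filled where the adjusted p was under 0.05, with the median in orange. Matrix glycoproteins and mesenchymal state genes have medians of -0.94 and -1.34, and epithelial genes of 0.30. The lowest points of the collagens (COL22A1) and of the processing enzymes (SERPINH1) have 0 tags in C4-2-labelled libraries, so their position depends on the prior count.

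For each tested member the 2 genes with the nearest pattern over the 4 libraries were sought among 11075 well-expressed genes (log2 average CPM 2 or more). Likeness was the distance between log2 CPM values centred on the gene's mean, so a small distance means nearly the same fold. For FN1 these were FRY (distance 0.0287) and AMACR (0.0751), and for VIM SCD5 (0.0482) and ASMTL (0.0542). THBS1 was nearest to HENMT1 (0.238) and BCAT1 (0.365), LOX to WIPI1 (0.235) and COL16A1 (0.243), and COL6A2 to MYH14 (0.00841) and VPS16 (0.0136). SNAI1 was nearest to ACVR2A (0.0287) and DNASE1 (0.0454), and SNAI2 to ETHE1 (0.199) and PPIL6 (0.217). With 4 libraries in 2 groups this is a description of fold and replicate spread.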

How the data were processed

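Total RNA of 4 libraries was sequenced on an Illumina HiSeq instrument, and its reads were placed on hg19 (GRCh37) by TopHat2 2.0.6 with Bowtie, per the submitters' processing notes and the series' design text. The authors deposited raw tag counts and RPKM values for each strand of 41351 transcript entries, per the file headers. The counting tool is not given in the sources used here. The kit is not stated to keep the strand. The sense strand was taken from the gene strand column, and 1.18% to 1.80% of tags lay on the opposite strand. The RPKM values divide by exon length and a library total of 171.51 to 241.07 M tags (M, mega), recovered from transcripts whose span equals their length.

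Entries were named through RefSeq (GRCh38.p14, used for symbols only), with 38974 of 40304 accessions matched; unnamed entries held 2.06% to 2.15% of sense tags and were left out. For each symbol the entry with the highest mean share of tags was kept, so FN1 is represented by its longest entry. Starts are counted from 1. Counts were tested with edgeR 4.0.16 in R 4.3.3 (low-count filter, TMM, quasi-likelihood test, cell line as the only term), adjusted over 15975 genes, and the script was tested on simulated data. Fold changes are C4-2 over LNCaP, with SEs from the F statistic. DESeq2 1.42.0, other scalings, filters, transcript sums, a replicate term and leaving out each library were alternatives. Replicates differed beyond sampling noise (chi-square per degree of freedom 12.7 for C4-2 and 25.6 for LNCaP). Intervals and floors cover counting error only.

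The members and the lists were chosen with earlier results of these data known. Genes named are the members, up to 4 called genes of each list by smallest adjusted p at a log2 average CPM of at least 2 (or the 2 most abundant where fewer than 2 were called), CDH1, CDH2, COL6A1, COL6A3, ESRP1, ESRP2 and the genes nearest in pattern. A gene that meets this rule is not reported here. COL1A1, MYH11, VWF, EMCN, CD68 and LYZ, named by that rule from markers of other cells, are given with the closing observations. THBS2, LOXL1, SNAI3, COL6A5, COL6A6, COL1A2, COL3A1, ACTA2, COL22A1, SERPINH1 and the genes overlapping or next to members were chosen after their values were seen.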

Additional observations from a re-analysis of the deposited data

Results flagged for a closer look

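Tags on the strand opposite to THBS1 numbered 297 in C4-2 replicate 1 and 200 in C4-2 replicate 2, more than the sense tags of the gene in the same libraries (81 and 62). They stood out as a signal in the strand column that the comparisons of levels do not use. These counts rest on the deposited strand columns, and the kit is not stated to keep the strand. In LNCaP-labelled libraries they numbered 407 and 511, beside 10799 and 12903 sense tags. Scaled, the opposite tags were lower in C4-2-labelled libraries, at 1.85 and 1.70 CPM, against 6.77 and 7.22 CPM in LNCaP-labelled libraries. No other member had more opposite than sense tags in both libraries of a line. The gene FSIP1 on that strand was lower in C4-2-labelled libraries (1.70 and 1.53 CPM, against 16.3 and 15 CPM in LNCaP-labelled libraries), and its part in these tags was not tested.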

How the results depend on the processing

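The calls of VIM, COL6A2, FN1, LOX and THBS1 kept direction and side of the threshold in each of the 11 alternatives. The scale to library totals raised the median log2 fold change to 1.01 with 11627 higher and 1664 lower genes, so that 87.5% of calls were higher, beside 50.3% under TMM. With it 4 members were higher (VIM, COL6A2, SNAI1 and SNAI2), as were 7 relatives (0 lower), 7 matrix glycoproteins (6 lower), 8 mesenchymal state genes (8 lower) and 20 partners of the factors (3 lower), and 1 epithelial gene was lower. It turned THBS3 (0.33), COL6A1 (0.49), MAL2 (0.04), CTBP2 (0.26), ESRP1 (0.18), VWF (0.71), CD68 (0.77) and LYZ (0.04) positive. That list covers only the genes named by rule and those nearest in pattern. The directions of ZEB1-AS1, LOXL1 and SNAI3 also depended on this scale. The sum of transcripts gave 1 relative higher, and the filter of 1 CPM in 2 libraries gave 5 collagens higher and 7 lower (fewer genes tested) and ETHE1 at -0.04. Without single libraries relatives ranged from 0 to 1 higher and from 3 to 5 lower, SNAI2 from -0.13 (without C4-2 replicate 1) to 0.37, and ETHE1 from -0.16 (without C4-2 replicate 1) to 0.23. Deviations of same-numbered libraries showed next to no correlation (-0.032), which does not tell whether these libraries were handled in pairs. A replicate block gave 6259 genes higher and 6141 lower, with 2 members higher and 3 lower. DESeq2 gave 6096 and 5758. Without a filter TWIST1 also passed (adjusted p = 0.0381), and without LNCaP replicate 2 ZEB1 did (0.019). With 0 to 21 tags per library, the call of TWIST1 rests on the filter and that of ZEB1 on a single library. ZEB2 was tested only without a filter, and did not pass (edgeR adjusted p = 0.212).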

Other observations

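Of 19 tested genes for enzymes, inhibitors and chaperones that process the matrix, 13 were higher in C4-2-labelled libraries, 5 lower and 1 did not pass (median log2 fold change 0.84, beside -0.0113 and 40.2% higher and 39.7% lower for all genes). The lysyl hydroxylase genes PLOD1 and PLOD2 rose (1.41 ± 0.064 and 1.59 ± 0.069), as did the metalloprotease gene ADAMTS1, with 449 and 439 CPM in C4-2-labelled libraries and 169 and 170 CPM in LNCaP-labelled libraries. TIMP2, a metalloprotease inhibitor gene, fell (-1.26 ± 0.062). SERPINH1, the gene of the collagen chaperone HSP47, had 0 tags in both C4-2-labelled libraries and 300 and 381 in LNCaP-labelled libraries, at least 483-fold lower against a floor of 3 tags over the group. The 95% counting interval of the ratio of C4-2 to LNCaP ends at 0.00255.

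Partners and regulators of the repressor factors had 10 higher, 10 lower and 3 not passing of 23 tested (median 0.02). These shares lie near those of all tested genes, 40.2% higher and 39.7% lower (median -0.0113). The corepressor genes CTBP1 and CTBP2 went apart (1.34 ± 0.059 and -0.75 ± 0.040, though CTBP2 turned to 0.26 with library totals). The deacetylase gene HDAC2 rose (1.1 ± 0.051) and the Hippo kinase gene LATS2 fell (-1.38 ± 0.074).

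Of the fibroblast and smooth muscle markers, ACTA2 rose (2.38), as did COL3A1 (1.35) and MYH11 (1.12), and COL1A1 fell (-1.48). The endothelial list summed to 4 and 3.77 CPM in C4-2-labelled libraries and to 4.99 and 4.31 CPM in LNCaP-labelled libraries, with VWF at -0.29 and EMCN at 1.49. The immune list summed to 2.40 and 2.27 CPM in C4-2-labelled libraries and to 3.71 and 3.94 CPM in LNCaP-labelled libraries, with CD68 at -0.23 and LYZ at -0.97. Both the endothelial and the immune list had 3 genes tested, with 0 higher, 2 lower and 1 not passing. Of all tested genes 40.2% were higher and 39.7% lower. EMCN and CD68 did not pass, and EMCN, which had 0 tags in LNCaP replicate 2, stood at 8.36 without LNCaP replicate 1 and at 0.39 without LNCaP replicate 2. The call of VWF (adjusted p = 0.0362) ended in 7 of 11 alternatives, DESeq2 among them (adjusted p = 0.13), and its direction turned in 1. CD68 and LYZ had more opposite than sense tags in all 4 libraries.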
